A study of Mus musculus with 7 samples.

Results

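The epidermal differentiation complex is a cluster of genes on mouse chromosome 3 that build the outer layers of the skin. Its genes were described here in mouse basal cell carcinoma, in newborn epidermis and in a carcinoma cell line treated with cyclopamine. Members were the probe sets assigned to exactly 1 gene whose symbol starts with Lce, Sprr or S100a, or is Ivl, Lor, Crct1, Flg, Hrnr, Rptn or Tchh. The rule took 54 of the 34945 probe sets with 1 gene, which stood for 43 of 18193 genes. They were 9 Sprr genes, 15 Lce genes, the 3 genes Ivl, Lor and Crct1, the 4 filaggrin-type genes Flg, Hrnr, Rptn and Tchh, and 12 S100a genes. Flg2 and Crnn, which the rule also names, had no such probe set and are not analysed here.

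The study used 7 Affymetrix mouse arrays, each hybridised with biotin-labelled cRNA of 1 RNA sample. There were 2 arrays of dissected basal cell carcinoma tumours, tumour 1 and tumour 2, and 2 arrays of normal newborn (P0) epidermis. The remaining 3 arrays held the mouse carcinoma cell line PDKC1, untreated at 0 h and treated for 6 h and 10 h with cyclopamine, which inhibits the Hedgehog pathway protein Smoothened. The sources used here do not give genotype, strain, the age of tumour-bearing animals, the origin of the cell line or the cyclopamine dose. Newborn age went with every epidermis array, so age and tumour cannot be told apart in the tissue comparison. Whether arrays of a group stand for separate animals is not in the labels; the p-values thus cover the spread of these samples alone, and it may be technical.

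Keratinocytes leave the basal layer of the epidermis, stop dividing and flatten into dead cells that are wrapped in a cornified envelope. Transglutaminases build that envelope by crosslinking precursor proteins, of which involucrin, loricrin, the small proline-rich (SPRR) and the late cornified envelope (LCE) proteins are encoded in this cluster. The cluster also holds the filaggrin-type genes, whose large products bundle keratin filaments or line the envelope, and the S100a genes, which encode small calcium-binding proteins that act in many cell types besides keratinocytes.

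Values were signal intensities on a linear scale. Each array had a mean of 500 once 2 percent of probe sets at either end were trimmed. Differences are given on the scale log2(intensity + 16), tumour minus epidermis with its standard error (SE), and a gene was called where limma's adjusted p was under 0.05. In each tissue array the RNA gave stronger 3' than 5' signal. For the Actb controls the ratio of 3' to 5' signal was 11.3 (tumour 1), 93.1 (tumour 2), 3.98 and 2.84 (epidermis), and 1.15 to 1.21 (PDKC1). The labels were set against keratin genes. Krt10, a keratin of the suprabasal layers, had 32567 and 21472 in tumours 1 and 2, against 48813 and 50560 in epidermis, and 776.9 to 865.0 in PDKC1. Krt5 and Krt14, keratins of the basal layer, had 31322 and 33585 in PDKC1 at 0 h. Krt5 was as bright in the tissues, at 26659 to 35513, and Krt14 had 7866 to 31304 there. Krt15, another basal keratin, went the other way, with 957.0 to 1203 in PDKC1 against 13434 to 30783 in the tissues. Fibroblast markers summed to 80341 and 103562 in the tumours, against 20560 and 19693 in epidermis, with 7 of 8 measured markers called higher. Skeletal muscle markers summed to 15456 and 3122 in the tumours, against 517.4 and 613.5 in epidermis, with 3 of 9 called higher. Of all genes 16.6% were called higher. The part of RNA quality and of these other cells in the results was not tested. In such bulk samples fewer cells of a type and less RNA per cell cannot be told apart. Tissue cRNA was made from 100 ng of RNA and PDKC1 cRNA from 2000 ng. Cell line and RNA input thus cannot be told apart where PDKC1 levels are set against tissue levels.

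The comparison of tumour with epidermis asked which genes of the complex differ between the carcinoma and normal epidermis. Most genes of the complex were lower in the tumours, and the genes called higher were all S100a genes. Of 43 members 27 were called lower, against 12.5% of all genes, and 5 were called higher, against 16.6% of all genes. The median difference over the members was -1.90, while it was 0.09 over all genes. Both tumours lay below both epidermis arrays in 30 members (29.8% of all genes) and above both in 5 members (35.8% of all genes), and the groups overlapped in 8. By family, 13 of 15 Lce genes, 4 of 9 Sprr genes, 3 of 4 filaggrin-type genes, all 3 of Ivl, Lor and Crct1, and 4 of 12 S100a genes were called lower.

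These counts leaned on the epidermis arrays, as did the counts over all genes, which also fell when an epidermis array was left out. With epidermis 1 left out 12 of the 32 called members were still called, and with epidermis 2 left out 15 were, each in a fit where a single epidermis array is assumed to vary like the tumours. No member differed by 2-fold or more between the epidermis arrays, against 1983 of all genes.

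**Figure D1:**
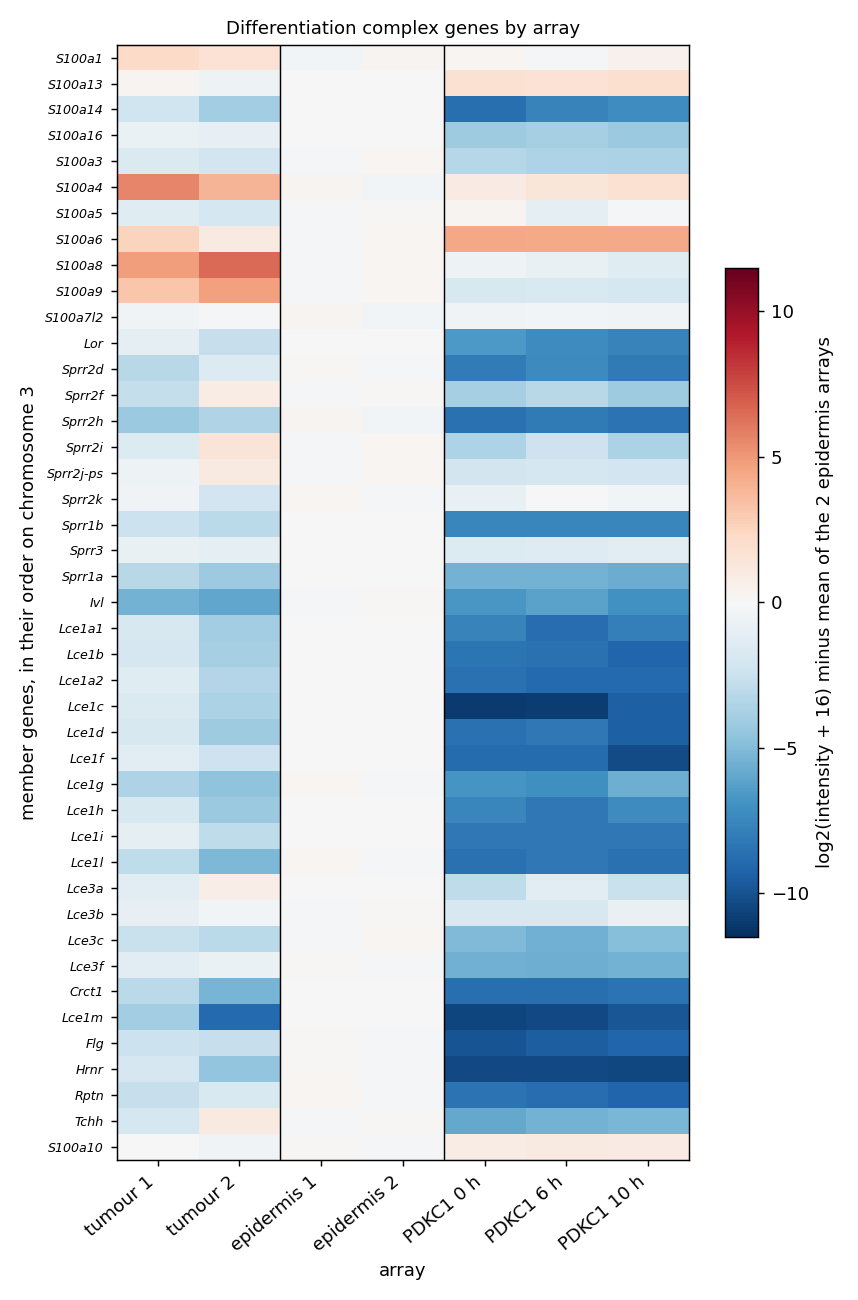
Heat map of the 43 genes of the complex (down the page, in their order on chromosome 3) on 7 arrays (tumours, epidermis, PDKC1 at 0, 6 and 10 h), coloured by log2(intensity + 16) minus the mean of the epidermis arrays, so that each gene is set only against itself. The Lce genes are below epidermis in both tumours except for Lce3a in tumour 2, whereas S100a8, S100a9 and S100a4 are above it in both.

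Promoter sequence was read from RefSeq (build GRCm38.p6) as windows of 300 bases, 250 before to 50 after the transcription start. Of the 43 genes 38 had a window, and with alternative starts of S100a3 (4 windows) and S100a16 (2 windows) there were 42 windows. Sprr2j-ps, Lce1f, S100a10, Crct1 and S100a14 had none. Both strands of each window were searched for TGANTCA. The pattern covers TGAGTCA and TGACTCA, bound by AP-1, the FOS and JUN family of transcription factors. As N is any base, it also takes TGAATCA and TGATTCA. The search also covered the TATA box, written TATAAA. The last pattern was CACCC, which KLF factors bind. None of these patterns contains another. A match is a description of letters, not a site shown to be used.

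The 5 windows below show genes with opposite or split values in the tumours. Ivl, Sprr1a and Sprr2h were called lower, Sprr2i lay on both sides of epidermis in the 2 tumours, and S100a8 was called higher. Capitals mark TGANTCA and TATAAA matches, and each line runs 5′ to 3′ on the gene's strand. The positions are chr3:92573686-92573985 on the minus strand for Ivl, chr3:92485832-92486131 on the minus strand for Sprr1a, chr3:92385435-92385734 on the plus strand for Sprr2h, chr3:92407741-92408040 on the plus strand for Sprr2i, and chr3:90668821-90669120 on the plus strand for S100a8.
Ivl: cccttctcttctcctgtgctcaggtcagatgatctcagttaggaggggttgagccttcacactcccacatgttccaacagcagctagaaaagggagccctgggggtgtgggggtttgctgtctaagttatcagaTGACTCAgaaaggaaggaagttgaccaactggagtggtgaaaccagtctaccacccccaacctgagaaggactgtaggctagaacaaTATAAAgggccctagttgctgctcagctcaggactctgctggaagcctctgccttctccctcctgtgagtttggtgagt
Sprr1a: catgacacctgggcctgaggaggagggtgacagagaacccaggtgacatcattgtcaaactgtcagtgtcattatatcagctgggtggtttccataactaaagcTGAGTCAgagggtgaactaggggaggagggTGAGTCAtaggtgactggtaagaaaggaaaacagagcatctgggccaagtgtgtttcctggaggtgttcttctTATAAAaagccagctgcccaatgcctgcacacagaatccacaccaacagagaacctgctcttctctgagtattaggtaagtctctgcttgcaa
Sprr2h: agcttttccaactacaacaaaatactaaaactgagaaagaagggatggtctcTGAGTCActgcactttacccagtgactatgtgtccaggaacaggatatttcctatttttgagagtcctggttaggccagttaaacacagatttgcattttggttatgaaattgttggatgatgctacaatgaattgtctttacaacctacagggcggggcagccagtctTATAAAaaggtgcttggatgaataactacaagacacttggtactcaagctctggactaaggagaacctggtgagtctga
Sprr2i: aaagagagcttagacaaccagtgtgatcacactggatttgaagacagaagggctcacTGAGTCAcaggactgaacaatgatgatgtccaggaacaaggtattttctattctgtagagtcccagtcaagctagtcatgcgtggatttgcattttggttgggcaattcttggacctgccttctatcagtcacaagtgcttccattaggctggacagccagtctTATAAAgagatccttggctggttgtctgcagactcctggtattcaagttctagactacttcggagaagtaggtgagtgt
S100a8: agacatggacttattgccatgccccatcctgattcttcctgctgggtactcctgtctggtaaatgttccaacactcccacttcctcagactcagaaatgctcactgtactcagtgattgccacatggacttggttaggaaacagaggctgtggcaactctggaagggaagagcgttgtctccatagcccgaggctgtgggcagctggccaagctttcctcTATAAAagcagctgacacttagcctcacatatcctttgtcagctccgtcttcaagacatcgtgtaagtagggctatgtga

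TGANTCA was found in 13 of 42 windows of the complex (31.0%), against 7.81% of all 32851 RefSeq windows. It was in 7 of 8 Sprr windows, in those of Ivl, Lor, Flg and Rptn, in 2 of 14 S100a windows and in 0 of 14 Lce windows. In the 5 Sprr2 windows it began 193 to 198 bases before the start, and Sprr2k held a further copy 182 bases before it. Sprr1a held copies 146 and 116 bases before its start, Sprr1b 1 copy at 111, Ivl at 116, Lor at 48, Flg at 103 and Rptn at 96. TATAAA was found in 20 of 42 windows (47.6%), against 13.6% of all windows, including all 8 Sprr windows and 2 of 14 Lce windows. CACCC was found in 24 of 42 (57.1%), close to the 57.5% of all windows. Sprr2 windows were alike in sequence, with an identity of 58.1% to 81.8% over 10 pairs (median 65.6%), and the 2 shown, Sprr2h and Sprr2i, were 64.6% identical. Lce1 windows had an identity of 43.3% to 86.0% over 45 pairs (median 61.6%), and those of S100a8 and S100a9 were 42.5% identical.

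The envelope precursor genes Ivl, Lor and Crct1 were all called lower. Ivl encodes involucrin, an early scaffold of the envelope. Its intensity was 406.2 and 280.7 in tumours 1 and 2, against 17192 and 19758 in the epidermis arrays. The groups were far apart, with a difference of -5.70 ± 0.24 (adjusted p = 0.000245). A second probe set of the gene Ivl gave 9.5 and 6.4 in the tumours, against 1062 and 1017 in epidermis (-5.46 ± 0.38). The gene stayed called without epidermis 1 (adjusted p = 0.0106) and without epidermis 2 (0.0105).

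Crct1 encodes a cysteine-rich C-terminal protein of the cluster. It had 4880 and 1026 in tumours 1 and 2, against 43486 and 42968 in epidermis. Tumour 2 was the lowest tissue array and the epidermis arrays were close to each other (-4.26 ± 0.64, adjusted p = 0.00412). Lor encodes loricrin, the main protein of the mature envelope. It had 12280 and 4204 in tumours 1 and 2, against 28053 and 24960 in epidermis. Both tumours were below epidermis, tumour 2 further (-1.88 ± 0.47, adjusted p = 0.0259). The call of Lor was lost without epidermis 1 (adjusted p = 0.145), without epidermis 2 (0.117), with quantile normalization (-1.35, adjusted p = 0.0997) and without a variance trend (0.0708). The probe set of Lor that is brightest in the tissues had 20970 and 3121 in the tumours, against 40627 and 45160 in epidermis, and was not called (-2.40, adjusted p = 0.057). This choice of probe set was made after the data were seen. Another, dimmer probe set of Lor differed by -0.55 ± 0.36 and was not called (adjusted p = 0.312).

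The filaggrin-type genes Flg, Hrnr and Rptn were called lower, and Tchh, the gene of the hair follicle protein trichohyalin, was split between the tumours. Flg encodes profilaggrin, whose processed units bundle keratin and are broken down to moisturising amino acids. Its intensity was 3557 and 3127 in tumours 1 and 2, against 21340 and 17850 in epidermis. The tumours were close to each other and well below epidermis (-2.54 ± 0.22, adjusted p = 0.00079). Hrnr encodes hornerin, a relative of profilaggrin found in the cornified layer. It had 6023 and 978.6 in tumours 1 and 2, against 25406 and 21700 in epidermis. Tumour 2 was the lowest tissue array (-3.26 ± 0.74, adjusted p = 0.0179), and the call was lost without epidermis 1 (0.1), without epidermis 2 (0.0813) and without a variance trend (0.055).

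Rptn encodes repetin, an envelope precursor. It had 1592 and 2984 in tumours 1 and 2, against 11394 and 8555 in epidermis. Here tumour 1 was the lowest tissue array (-2.17 ± 0.33, adjusted p = 0.00435). The call was lost without epidermis 1 (0.0609), and also with the mean of the 3 probe sets of Rptn (0.376), of which the other two lay between 26.2 and 78.1 on every tissue array.

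Tchh had 250 and 2176 in tumours 1 and 2, against 973.7 and 1202 in epidermis. Tumour 1 was below and tumour 2 above both epidermis arrays, and the mean difference was not called (-0.52 ± 0.86, adjusted p = 0.705). Without tumour 1 the difference was 1.0 (adjusted p = 0.0054) and without tumour 2 it was called lower, at -2.05 (adjusted p = 0.000645). Hair shaft and inner root sheath markers summed to 973.5 and 6208 in tumours 1 and 2, against 5510 and 9445 in epidermis. Of 8 markers 2 were called lower and 1 higher, against 12.5% and 16.6% of all genes. The part of hair follicle cells in the Tchh values was not tested.

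The Sprr genes had a median difference of -1.28, and 4 of 9 were called lower. Several Sprr2 genes differed between the tumours, among them Sprr2d, which was also called lower. Sprr1a and Sprr1b encode SPRR1 precursors, which bridge other envelope proteins. Sprr1a had 1006 and 515.2 in tumours 1 and 2, against 9080 and 9764 in epidermis. Both tumours were far below both epidermis arrays (-3.68 ± 0.32, adjusted p = 0.000843). Sprr1b had 590.9 and 374.9 in the tumours, against 3222 and 3370 in epidermis. The order was the same, tumour 2 being the lowest tissue array (-2.77 ± 0.27, adjusted p = 0.00106).

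Among the Sprr2 genes, which encode short proline-rich precursors, Sprr2h and Sprr2d were called lower. Sprr2h had 650.7 and 1185 in tumours 1 and 2, against 16102 and 10756 in epidermis. Tumour 1 was the lowest tissue array, and the groups were well apart (-3.88 ± 0.34, adjusted p = 0.000843). Sprr2d had 1218 and 3817 in tumours 1 and 2, against 12690 and 10522 in epidermis. Tumour 2 was the higher tumour and still below epidermis (-2.41 ± 0.49, adjusted p = 0.0121). Sprr2d was not called without epidermis 1 (0.0918) or without epidermis 2 (0.0678).

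Sprr2f and Sprr2i were the brightest Sprr genes that were not called. Sprr2f had 51.4 and 780.1 in tumours 1 and 2, against 394.1 and 482.1 in epidermis. The tumours lay on either side of epidermis (-0.96 ± 1.01, adjusted p = 0.538). Sprr2i had 55.0 and 575.4 in tumours 1 and 2, against 162.0 and 238.5 in epidermis. The same order held, and the mean difference was near 0 (-0.05 ± 0.91, adjusted p = 0.973). Without tumour 1 both were called higher, Sprr2f at 0.82 (adjusted p = 0.0371) and Sprr2i at 1.47 (0.0152), and without tumour 2 both were called lower (adjusted p = 0.00141 for Sprr2f and 0.0443 for Sprr2i). The pseudogene Sprr2j-ps (0.26 ± 0.62), Sprr2k (-1.28 ± 0.66) and Sprr3 (-0.96 ± 0.44), an SPRR gene of internal squamous epithelia, were not called. The call of Sprr2k turned on 1 array too: without tumour 1 it was called lower (adjusted p = 0.0196).

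The Lce genes encode precursors that are added late in envelope formation, and all 15 had a negative mean difference. The median was -2.84. The Lce1 genes were lower without exception, with 11 of 11 called and differences of -6.46 to -1.83. Lce1m had 2244 and 55.5 in tumours 1 and 2, against 36531 and 34196 in epidermis. Tumour 2 was far below every other tissue array, and the difference was -6.46 ± 1.37 (adjusted p = 0.0141). Its size rested on tumour 2: for Lce1m it was -3.97 without tumour 2 and -8.95 without tumour 1. The call of Lce1m was lost without epidermis 1 (0.0771) and without epidermis 2 (0.0705). Lce1g had 219.3 and 97.1 in the tumours, against 3182 and 2456 in epidermis. Both tumours were far below (-4.11 ± 0.38, adjusted p = 0.000965).

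Lce1l had 946.5 and 179.7 in tumours 1 and 2, against 8033 and 6225 in epidermis. Tumour 2 was again the lowest tissue array (-4.03 ± 0.66, adjusted p = 0.00568). Lce1h had 8944 and 1615 in the tumours, against 34017 and 30641 in epidermis. The tumours differed more from each other than the epidermis arrays did (-3.08 ± 0.70, adjusted p = 0.0183). The other 7 Lce1 genes, Lce1a1, Lce1a2, Lce1b, Lce1c, Lce1d, Lce1f and Lce1i, had 1556 to 20630 in the tumours, against 24727 to 43884 in epidermis. They differed by -2.97 to -1.83 (adjusted p = 0.00986 to 0.0347). The probe sets of Lce1f agreed in direction but not in size: the brighter differed by -1.83 and the second by -4.63, with 785.2 and 198.6 in tumours 1 and 2, against 13056 and 8016 in epidermis.

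Of the Lce3 genes, whose human relatives respond to barrier injury, 2 of 4 were called lower. Lce3c had 237.2 and 151.3 in the tumours, against 1250 and 1708 in epidermis (-2.84 ± 0.32, adjusted p = 0.00156). Lce3f had 1065 and 1456 in the tumours, against 2666 and 2304 in epidermis (-0.98 ± 0.24, adjusted p = 0.0227). In both genes all tumour values were below all epidermis values. Lce3b had 204.3 and 314.6 in tumours 1 and 2, against 360.7 and 444.0 in epidermis, and was not called (-0.63 ± 0.34, adjusted p = 0.223). Lce3a had 63.5 and 297.4 in tumours 1 and 2, against 162.7 and 170.2 in epidermis. Its tumours lay on either side of epidermis (-0.21 ± 0.65, adjusted p = 0.851).

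Lce calls depended on single arrays and settings. Of the 13, 2 were called without epidermis 1 (Lce1g and Lce3c) and 3 without epidermis 2 (those and Lce1l), 7 without a variance trend and 9 with quantile normalization. Each Lce1 gene has close relatives in the family: 8 of the 24 Lce and Sprr genes stood on probe sets whose type (_x_at or _s_at) marks probes shared with other transcripts, so signal of near-identical relatives cannot be told apart there.

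The 2 tumour arrays differed from each other in the complex. Tumour 2 was at least 2-fold below tumour 1 in 18 of 43 members, against 9.17% of all genes, and at least 2-fold above it in 8, against 7.94% of all genes. The median difference, tumour 2 minus tumour 1, was -0.63 over the members and -0.03 over all genes. By family it was -1.90 for Lce, -1.54 for Ivl, Lor and Crct1, 0.36 for filaggrin-type, -0.55 for S100a and 0.85 for Sprr genes. All 11 Lce1 genes were lower in tumour 2, by -4.98 to -1.01 on the log2 scale (median -2.02). The Sprr2 genes ran the other way, 5 of 6 being higher in tumour 2, with Sprr2f at 3.56, Sprr2i at 3.06, Sprr2d at 1.64, Sprr2j-ps at 1.60 and Sprr2h at 0.85, and Sprr2k at -1.80. With 1 array on each side these differences have no test. Whether the 2 arrays stand for separate tumours is not in the labels, so the differences may be technical. The 3' to 5' ratio was 93.1 in tumour 2 and 11.3 in tumour 1 for Actb, and 15.4 and 10.6 for Gapdh; the part of RNA quality was not tested.

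**Figure D2:**
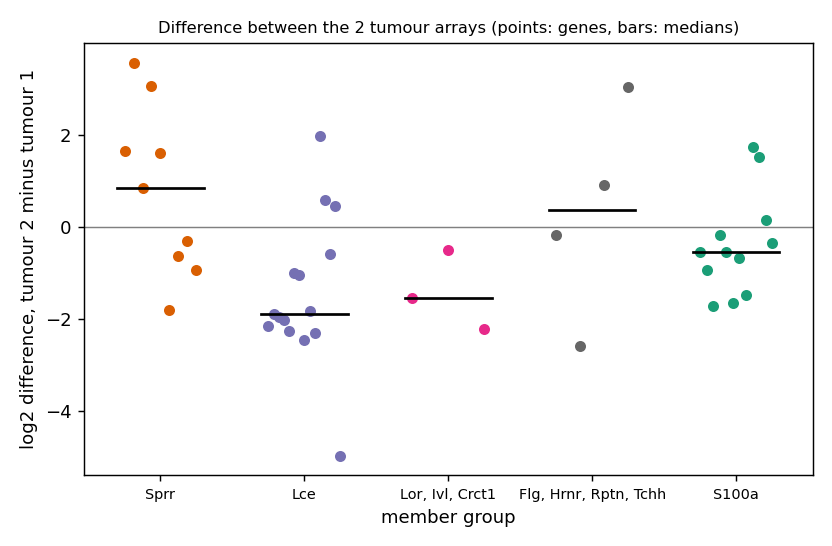
Difference between tumour 2 and tumour 1 for each gene of the complex, by family (log2 scale, bars are family medians, points above 0 are higher in tumour 2). The 3 Lce points above 0 are Lce3 genes, and all 11 Lce1 genes lie below 0, down to -4.98 for Lce1m, while 5 of 6 Sprr2 genes lie above 0, up to 3.56 for Sprr2f.

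The S100a genes moved both ways, with 5 of 12 called higher, 4 called lower and a median of -0.17. S100a8 and S100a9 encode the subunits of calprotectin, an antimicrobial protein abundant in neutrophils and induced in stressed keratinocytes. S100a8 had 2395 and 7956 in tumours 1 and 2, against 61.8 and 85.3 in epidermis. Both tumours were far above epidermis, tumour 2 the most (5.63 ± 0.54, adjusted p = 0.00102). S100a9 had 633.9 and 1852 in tumours 1 and 2, against 46.8 and 64.7 in epidermis, in the same order (3.95 ± 0.53, adjusted p = 0.00273).

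The neutrophil markers were low throughout. Of 8 measured markers 0 were called by limma (0 at an unadjusted p under 0.05), all 8 were under 200 on each tissue array, and their sums were 312.9 and 354.8 in the tumours, against 570.4 and 398.7 in epidermis. Csf3r, the receptor of granulocyte colony-stimulating factor, had 113.3 and 138.8 in the tumours, against 158.6 and 151.6 in epidermis, and Cxcr2, a chemokine receptor of mature neutrophils, had 12.3 and 21.3 in the tumours, against 7.2 and 7.7 in epidermis. The list also holds granule genes whose RNA is made mainly in bone marrow precursors, and the part of neutrophils in the S100a8 and S100a9 values was not tested. Macrophage markers summed to 11010 and 12253 in the tumours, against 9450 and 8111 in epidermis. Of 10 markers 2 were called higher and 1 lower, against 16.6% and 12.5% of all genes. Of 4 keratins induced in wounded skin, Krt6a was called higher (1.54, adjusted p = 0.00682; 0.108 without epidermis 1) and Krt16 lower (-1.89, adjusted p = 0.00636; 0.0819 without epidermis 2). Krt17 (-0.56, adjusted p = 0.434) and Krt6b (-0.30, 0.403) were not called.

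S100a4 encodes a protein tied to motility in mesenchymal cells. It had 5237 and 1647 in tumours 1 and 2, against 116.8 and 73.3 in epidermis. Tumour 1 was the highest, the reverse of the order in S100a8 (4.76 ± 0.54, adjusted p = 0.00159). S100a6, the calcyclin gene, had 6423 and 2293 in tumours 1 and 2, against 914.6 and 1297 in epidermis. Tumour 1 was again the highest tissue array (1.80 ± 0.47, adjusted p = 0.0286), and the call was lost without epidermis 1 (0.177), without epidermis 2 (0.0956) and without a variance trend (0.0786).

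S100a1, a gene best known from muscle, had 1142 and 775.4 in tumours 1 and 2, against 182.1 and 288.2 in epidermis. Both tumours were above epidermis (1.96 ± 0.34, adjusted p = 0.00686), and the call was lost without epidermis 1 (0.0817). Another probe set of S100a1 had 99.3 and 88.9 in the tumours, against 48.7 and 94.0 in epidermis, and was not called (0.38, adjusted p = 0.62). The summed fibroblast and muscle markers given above were also higher in both tumours, the muscle sum most in tumour 1 and the fibroblast sum most in tumour 2. In tumour 2 the gene Myh1 gave 2271 of the muscle sum, and Mylpf, at 142.9, was below its epidermis values of 276.0 and 186.0. The part of these cells in S100a4, S100a6 and S100a1 was not tested.

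The S100a genes called lower were S100a14, S100a16, S100a3 and S100a5. S100a14, a gene of epithelial cells, had 2419 and 719.2 in tumours 1 and 2, against 12118 and 11671 in epidermis. Tumour 2 was the lowest tissue array (-3.15 ± 0.51, adjusted p = 0.00526). S100a16 had 13864 and 12249 in the tumours, against 23858 and 23423 in epidermis. The groups were close but apart (-0.86 ± 0.22, adjusted p = 0.0294), and the call was lost without epidermis 1 (0.247), without epidermis 2 (0.225), with quantile normalization (0.375) and without a variance trend (0.0807). A second probe set of S100a16 differed by -2.43 ± 0.34 (adjusted p = 0.00297).

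S100a3, known from the hair cuticle, had 129.2 and 82.6 in the tumours, against 374.0 and 496.7 in epidermis. Tumours were below epidermis throughout (-1.90 ± 0.38, adjusted p = 0.0113). S100a5 had 28.4 and 11.7 in the tumours, against 87.4 and 107.9 in epidermis, all low values (-1.69 ± 0.48, adjusted p = 0.0382). The call of S100a3 was lost without epidermis 1 (0.0808) and 2 (0.127), and that of S100a5 without tumour 2 (0.11), epidermis 1 (0.131) and epidermis 2 (0.175).

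S100a10, S100a13 and S100a7l2 were not called. S100a10, whose product binds annexin A2 on membranes, had 7946 and 6191 in the tumours, against 8619 and 7337 in epidermis (-0.18 ± 0.23, adjusted p = 0.617). Its probe sets disagreed: another one differed by -1.30 ± 0.51 (adjusted p = 0.109) and a dimmer one by 3.60 ± 0.40 (0.00153), with 924.8 and 1025 in the tumours, against 41.8 and 99.4 in epidermis. S100a13 differed by -0.15 ± 0.41 (adjusted p = 0.832), and S100a7l2 was under 15 on every tissue array.

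**Figure D3:**
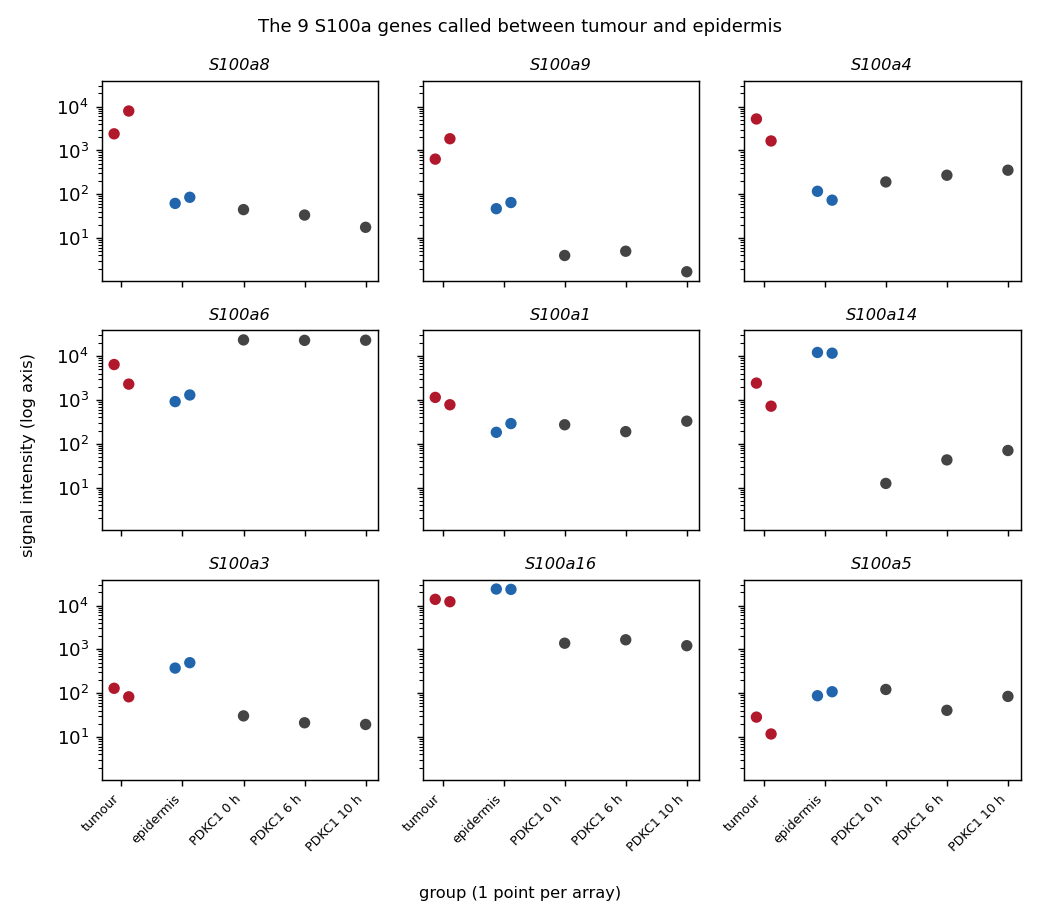
Intensity of the 9 called S100a genes on the tumour, epidermis and PDKC1 arrays (log axis, 1 point per array). S100a8 and S100a9 are highest in the tumours, S100a6 is brightest in PDKC1 at 22898 to 23444, and S100a14 is highest in epidermis.

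Neighbouring genes did not always run the same way. In the order of RefSeq along chromosome 3, S100a3 was lower, S100a4 higher, S100a5 lower and S100a6 higher, with no other member between them. S100a8 and S100a9 followed as higher genes. From Lor to Rptn, 23 of 30 member genes were called lower and 0 higher by limma, against 12.5% and 16.6% of all genes. The stretch covers the Sprr and Lce genes, Ivl, Crct1, Flg and Hrnr, and 0 were higher at an unadjusted p under 0.05. Only member genes were placed in this order, so other genes of the locus are not counted. S100a10, at the far end of the complex, was not called.

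**Figure D4:**
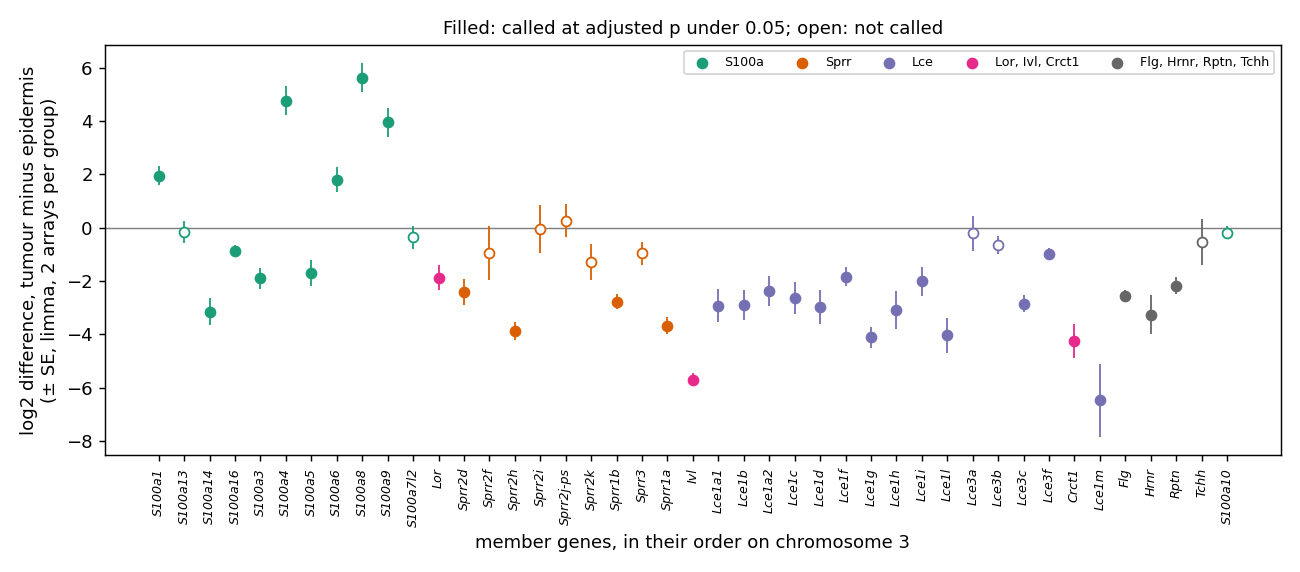
Difference between tumour and epidermis (log2 scale, bars are the standard error, filled points were called) for the 43 genes, placed by their order on chromosome 3 and not by distance. Genes called higher occur only among the S100a genes at the left end, and the stretch of Lor, Sprr, Ivl, Lce, Crct1, Flg, Hrnr and Rptn holds negative values except Sprr2j-ps at 0.26.

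Genes whose products act with the complex were measured too. Of 14 genes of envelope crosslinking and scaffold 8 were called lower and 1 higher, against 12.5% and 16.6% of all genes. Their median was -1.90, against 0.09 over all genes. Cdsn, the corneodesmosin gene, differed by -5.41 ± 0.45 (adjusted p = 0.000743) and Tgm1, the transglutaminase that crosslinks the precursors above, by -5.08 ± 0.55 (0.00142). The called higher gene was Krt2, at 18385 and 233.7 in tumours 1 and 2, against 25.8 and 18.9 in epidermis, a difference set mostly by tumour 1 (5.81 ± 1.71, adjusted p = 0.0441) and lost without epidermis 1 (0.144) or 2 (0.156). Of 13 measured enzymes of filaggrin processing and desquamation 10 were called lower and 0 higher by limma, against 12.5% and 16.6% of all genes. At an unadjusted p under 0.05, 0 were higher, and the median of these enzymes was -2.78. Among them were Hal, which converts histidine from filaggrin (-5.64 ± 0.76), Klk5, a protease of the cornified layer (-5.19 ± 0.34), and Casp14, a caspase that cuts filaggrin (-4.94 ± 0.21).

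Of 26 measured transcription factors tied to the complex 13 were called lower and 3 higher (median -0.71), against 12.5% and 16.6% of all genes. Ovol1 differed by -3.98 ± 0.29, Grhl3 by -3.24 ± 0.25 and Zfp750 by -3.23 ± 0.22, all factors of late keratinocyte differentiation. The AP-1 genes Fos (-2.75 ± 0.24, adjusted p = 0.000793), Jun (-2.14 ± 0.28, 0.00271) and Junb (-1.92 ± 0.45, 0.0203) were chosen for mention after their values were seen, because TGANTCA was searched in the promoters. The other AP-1 genes of the list, Fosl1 (-0.66, adjusted p = 0.269), Fosl2 (-0.64, 0.0915) and Jund (0.11, 0.782), were not called. Junb was not called without epidermis 1 (0.126) or 2 (0.124).

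Of 8 receptors and annexins that bind S100 proteins 3 were called lower and 1 higher, against 12.5% and 16.6% of all genes. The higher gene was Ager, which encodes RAGE, a receptor of S100a8, S100a9 and S100b, at 546.5 and 965.1 in the tumours, against 6.6 and 7.7 in epidermis (5.0 ± 0.45, adjusted p = 0.000903). Bsg differed by -2.28 ± 0.41 and Anxa2, the partner of S100a10, by -1.74 ± 0.39, both not called without epidermis 1 (0.0612 and 0.111) or 2 (0.0803 and 0.114). Of 7 measured genes of the locus or S100 genes outside the rule 1 was called lower and 1 higher. These counts are near the 12.5% lower and 16.6% higher of all genes. Kprp, a keratinocyte proline-rich protein gene within the locus, had 3988 and 614.3 in tumours 1 and 2, against 28512 and 25238 in epidermis (-4.08 ± 0.75, adjusted p = 0.00871; not called without epidermis 1, 0.0618, or 2, 0.0521). S100b, which lies outside the complex and is known from Schwann cells and other neural crest cells, had 1039 and 388.5 in tumours 1 and 2, against 64.2 and 48.4 in epidermis (3.18 ± 0.51, adjusted p = 0.00526).

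The PDKC1 arrays asked how the complex looks in carcinoma cells in culture and whether it changes within hours of cyclopamine. Most of its genes were dim at every time. At least 1 array was above its median probe set for 17 of 43 members, against 63.6% of all genes. Only S100a6, S100a10, S100a13 and S100a16 were above 500 on all 3 arrays, while the other 39 were below 500, with 354.2 for S100a4 at 10 h the highest. The highest value was 209.8 among the Lce genes, 205.3 among the Sprr genes and 19.1 among the filaggrin-type genes. S100a8 had 44.6, 33.5 and 17.6 at 0, 6 and 10 h and S100a9 4.0, 5.0 and 1.7, so both genes were below the median probe set of each PDKC1 array. S100a6 had 23444, 22898 and 23060, more than in any tissue array, though tissue cRNA was made from less RNA.

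Of the 17 members with an array above its median probe set, 0 were at least 1.5-fold above 0 h at both later times (2.55% of all genes with such signal). At least 1.5-fold below 0 h at both times was 1 of the 17 (2.84%). With 1 array per time none of these differences has a test. That gene was Lor, at 256.0, 154.8 and 112.9 at 0, 6 and 10 h. It was lower at each later time (-0.67 at 6 h and -1.08 at 10 h, log2 scale). The probe set of Lor that is brightest in the tissues, however, had 11.9, 4.1 and 3.8, near background. Another probe set of Lor had 30.6, 11.8 and 68.8, lower at 6 h and higher at 10 h than at 0 h. Over the 17 members the median difference was -0.01 at 6 h and 0.00 at 10 h, against -0.01 and 0.01 over all genes with such signal. Among these 17, single members ranged at 6 h from -1.28 for S100a5 to 0.85 for Sprr2k, and at 10 h from -1.08 for Lor to 0.94 for Lce3b. Ivl had 163.6, 247.4 and 128.3 at 0, 6 and 10 h, without a steady direction. S100a4 had 191.0, 271.8 and 354.2 (0.48 and 0.84), higher at each later time but short of 1.5-fold at 6 h. Outside the 17, S100a14 had 12.4, 42.7 and 70.0 (1.05 and 1.6), past 1.5-fold at both times but with no array above its median probe set.

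**Figure D5:**
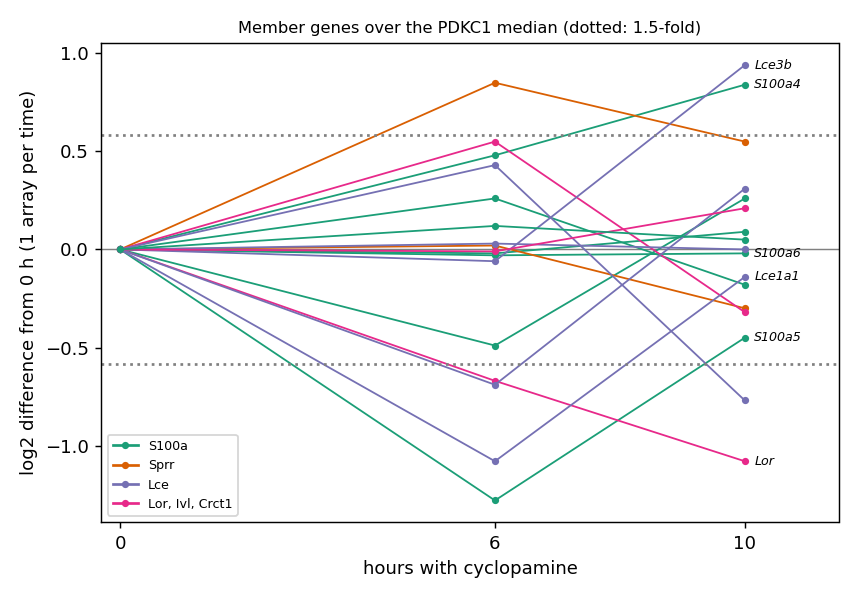
Change from 0 h in PDKC1 at 6 h and 10 h of cyclopamine (log2 scale, 1 array per time, no error can be given) for the 17 genes of the complex with an array above its median probe set, with dotted lines at 1.5-fold. Lor alone is past the lower line at both times, and no gene is past the upper line at both.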

How the data were processed

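Linear signal intensity values, 1 per probe set on each of 7 Affymetrix arrays, are as the authors deposited them. Per the labels' protocols, tissue cRNA was made from 100 ng of total RNA and PDKC1 cRNA from 2000 ng. The sources used here name neither the software that summarised the probes nor a genome build. Of 45101 probe sets, 64 controls, 932 assigned to several genes and 9160 with no gene name were left out, which left 34945 for 18193 genes. Each gene was represented by its brightest probe set, by mean log2 value over all 7 arrays.

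The tissue comparison used limma 3.58.1 (R 4.3.3; lmFit, eBayes with a variance trend) on log2(intensity + 16) of the 4 tissue arrays. P-values are two-sided, with Benjamini-Hochberg adjustment over 18193 genes and calls under 0.05; the fit was tested on simulated data. Same-numbered tumour and epidermis arrays share only a number. PDKC1 genes were counted past 1.5-fold from 0 h at 6 h and 10 h, among genes whose brightest array was above its median probe set. The number of arrays limits the precision.

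Values per array are given for members outside the Sprr, Lce and S100a families, called S100a members, the 4 largest called and up to 2 brightest uncalled members of Sprr and Lce, and members past the fold in PDKC1, and up to 3 called genes of each other list are named by size. Exceptions, chosen after their values were seen, are Krt5, Krt10, Krt14, Krt15, Krt17, Krt6b, Csf3r, Cxcr2, Myh1, Mylpf, Fosl1, Fosl2, Jund, S100a10, Lce3c, Lce3f, second probe sets, and Ivl, S100a4, S100a6, S100a8 and S100a9 in PDKC1. Members and lists were chosen with earlier results of these data known.

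The alternatives, each a single change, were quantile normalization, centring on the median, pseudocounts 4 and 64, leaving out genes under the 40th percentile, the mean of probe sets, all probe sets, no _x_at or _s_at sets, no variance trend, a replicate block, all 7 arrays, 2-fold calls, each tissue array left out, and, added after the data were seen, the brightest probe set over the tissue arrays. The other marker lists were basal keratinocyte (1 of 7 lower, 0 higher by limma, 0 higher at an unadjusted p under 0.05), melanocyte (1 of 6 lower, 2 higher), mast cell (4 of 6 higher), MHC class II and Langerhans (4 of 5 higher) and endothelial (2 of 5 higher). Over all genes 12.5% were called lower and 16.6% higher.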

Additional observations from a re-analysis of the deposited data

How the results depend on the processing

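Of 32 called members 12 were called under every alternative that gave them a value, and no called member changed direction. Of those 12, 9 had a value under every alternative, and Sprr2h, Lce3c and S100a8 had none without _x_at and _s_at probe sets. The count of lower members was 27, 26 with the replicate block and 9 to 29 with each tissue array left out in turn; that of higher members was 5, 3 without _x_at and _s_at probe sets, which removed members, and 3 to 8 with arrays left out. Other settings lowered the count of lower members too, to 18 without a variance trend and 21 with quantile normalization. It was 21 of 35 without _x_at and _s_at probe sets, which removed members. Leaving out an epidermis array leaves 1, assumed to vary like the tumours, and gave the lowest counts of lower members. The members' median of -1.90 was -2.30 with each array centred on its median, -2.26 with dim genes left out and -2.18 to -1.62 with arrays left out. Lower Lce genes numbered 13, 9 with quantile normalization and 7 without a variance trend. Without _x_at and _s_at probe sets 8 of the 13 had a value, and all 8 stayed called. Lower filaggrin-type genes numbered 3, and 2 without a variance trend or with the mean of probe sets. Lower S100a genes numbered 4, and 3 with quantile normalization or without a variance trend. Higher S100a genes numbered 5, 4 without a variance trend and 3 without _x_at and _s_at probe sets. All of these counts fell with an epidermis array left out. In PDKC1 the 1 lower member was 0 with quantile normalization, a pseudocount of 64, the mean of probe sets or a 2-fold threshold, and the 0 higher members became 1 with a pseudocount of 4 (Sprr2k) or no filter (S100a14).

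Reversals occurred only in members that were not called. With arrays left out Lce3a ranged -1.20 to 0.78, S100a13 -0.61 to 0.31, Sprr2f -2.75 to 0.82, Sprr2i -1.58 to 1.47, Sprr2j-ps -0.54 to 1.06 and Tchh -2.05 to 1.0. S100a10 was 0.22 with quantile normalization and 0.71 with probe sets averaged, Sprr2i 0.08 with a pseudocount of 64, and Sprr2j-ps -0.09 with quantile normalization and -0.14 with centring. Except where fewer arrays or probe sets were used, the cause was not tested.

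Over all genes 2267 were lower and 3015 higher (57.1% of calls higher, median 0.09). Centring gave 3856 and 1981 (33.9%, median -0.31), quantile normalization 2422 and 2498 (50.8%, median -0.09), all probe sets 3725 and 5815, 537 and 840 were called without epidermis 1, and 619 and 965 without epidermis 2. With centring the members' counts stayed at 27 lower and 5 higher. The replicate block has no basis in the data: deviations of same-numbered arrays correlated at -0.000636; under it S100a16 alone lost its call (adjusted p = 0.0505).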

Other observations

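The Sprr2a and S100a11 genes belong to the complex but were measured only by probe sets assigned to several genes, so they are not among the 43 genes above and were not tested. The brightest Sprr2a probe set, assigned to 3 Sprr2a genes, had 1918 and 614.5 in tumours 1 and 2, against 5162 and 7713 in epidermis. A second one had 1181 and 89.0 in the tumours, against 3369 and 5654 in epidermis. In both, the tumours lay below epidermis and tumour 2 was the lowest tissue array, whereas 5 of the 6 Sprr2 genes above were higher in tumour 2. In PDKC1 the first had 469.3, 452.1 and 384.8 at 0, 6 and 10 h. The probe set of S100a11, which encodes an S100 protein that is crosslinked into the envelope, had 11847 and 4904 in tumours 1 and 2, against 16389 and 15283 in epidermis. In PDKC1, whose cRNA was made from more RNA, it was brighter than in any tissue array, at 26955, 25133 and 26456.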
